A study of Mus musculus with 4 samples.

Results

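The killer cell lectin-like receptors are C-type lectin-like proteins of the cell surface, encoded by the Klr genes, and they were followed here in single immune cells of the mouse lung. Every gene whose symbol starts with Klra to Klrk followed by a digit was taken, which gave 26 of the 31053 genes in the files. The rule uses gene symbols alone. Of the 26 genes, 11 were Klra genes (the Ly49 receptors), 5 Klrb genes (NKR-P1), 3 Klrc genes (NKG2), 2 Klrg genes and 2 Klri genes, and Klrd1 (CD94), Klre1 and Klrk1 (NKG2D) made up the rest.

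The 4 libraries came from live (7-AAD-negative) CD45.2+ lung cells of male C57BL/6 mice aged 5 to 10 weeks, with 1 library for each group. All mice carried floxed Ift20 alleles: the WT groups had the floxed alleles without Cre, and the KO groups also had CD4-cre, which acts while T cells develop and so reaches CD8 T cells as well. The DPBS WT and DPBS KO groups received buffer, and the Papain WT and Papain KO groups received 25 µg of papain, a protease allergen, into the nose on 3 consecutive days and again on day 14, with lungs taken on day 15. The number of mice behind each library was not given in the sources used here, and with 1 library per group no difference between groups has a replicate check. The comparisons ask whether loss of Ift20 from T cells, or exposure to the allergen, goes with a different receptor repertoire.

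Natural killer (NK) cells read these receptors to decide between tolerance and killing. Inhibitory Ly49 receptors and the CD94/NKG2A pair (Klrd1 with Klrc1) recognize MHC class I molecules and signal through inhibitory motifs, whereas Ly49D (Klra4), Ly49H (Klra8) and NKG2D (Klrk1) activate the cell through the adaptors DAP12 (Tyrobp) or DAP10 (Hcst). Each NK cell is known to express its own selection of Ly49 genes, and some T cells, innate lymphoid cells and myeloid cells carry single members of the family.

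The libraries held 5863 to 8552 cell barcodes and between 53854420 and 75675956 UMIs, and 7 to 16 barcodes were shared between any pair of libraries. After filtering, 5442 to 7613 cells were kept per library. Where 4 values follow each other, they are for WT and KO after DPBS and then for WT and KO after papain. Ift20 was reported first as a check of the labels. In CD8 T-like cells its level was 52.7 CPM (counts scaled to 1000000 UMIs of the class) in DPBS WT and 54.1 in Papain WT, against 15.6 in DPBS KO and 18.5 in Papain KO. In T cells with NK genes it was 63.9 and 59.3 CPM in the WT libraries and 29.7 and 27.6 in the KO libraries, whereas in NK-like cells all 4 values lay between 98.1 and 119 CPM. A 3′ library does not read the deleted exons directly, so remaining UMIs do not show an intact gene.

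Cells were named from markers that held no Klr gene. NK-like cells had Ncr1 (the NKp46 receptor) at 323 to 557 CPM and the transcription factor Eomes at 297 to 396 CPM, and numbered 165, 71, 57 and 97. T cells with NK genes came from the T sub-clusters with high levels of NK genes and had no UMI of Cd4, Cd8a or Cd8b1 by definition. They had Cd3e at 435 to 606 CPM, Ncr1 at 1.74 to 28.7 CPM and Trdc, the constant chain of the gamma-delta T cell receptor, at 302 to 426 CPM. There were 67, 32, 79 and 42 of them. Zbtb16, which defines natural killer T cells, had 0 to 5 UMIs in each library. CD8 T-like cells numbered 1129, 693, 704 and 796.

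The NK-like cells were not equally pure in every library. A UMI of Cd3d, Cd3e or Cd3g was present in 9.70%, 33.8%, 28.1% and 15.5% of them. The 12 NK markers summed to 31768, 26976, 33118 and 33699 CPM, and the 7 neutrophil markers summed to 13.6, 339, 33.7 and 34.9 CPM in the same order. The 9 T cell markers summed to 1121 CPM in DPBS WT and to between 1499 and 1865 CPM in the other libraries. The part of these markers in the differences described further on was not tested, and the sums and called members of the NK comparisons are also given without the cells that had a Cd3 UMI.

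NK-like cells had the highest median level over the 4 libraries for most members. Klra6 was highest in T cells with NK genes (48.1 CPM), Klrg1 was highest in type 2 innate lymphoid cells (ILC2-like), and Klra2, Klra17, Klrb1b, Klri1 and Klrg2 were highest in myeloid or dendritic cells. UMI counts do not scale with transcript length, but some members share 3′ sequence with other genes and capture was not measured. An order of genes by CPM is therefore approximate. Of the 26 members, 23 reached 20 UMIs in at least 1 class. Klrb1 (35 UMIs over all kept cells), Klra10 (7 UMIs) and Klrc3 (5 UMIs) did not, and are given by these totals alone. B-like cells, which are not known to make these receptors, served as the background for free RNA: Klrd1 had 1.63 to 3.76 CPM there, Klra2 0.891 to 2.19 CPM and Klra1 0.889 to 1.88 CPM, with every other member at or under 1.04 CPM.

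**Figure D1:**
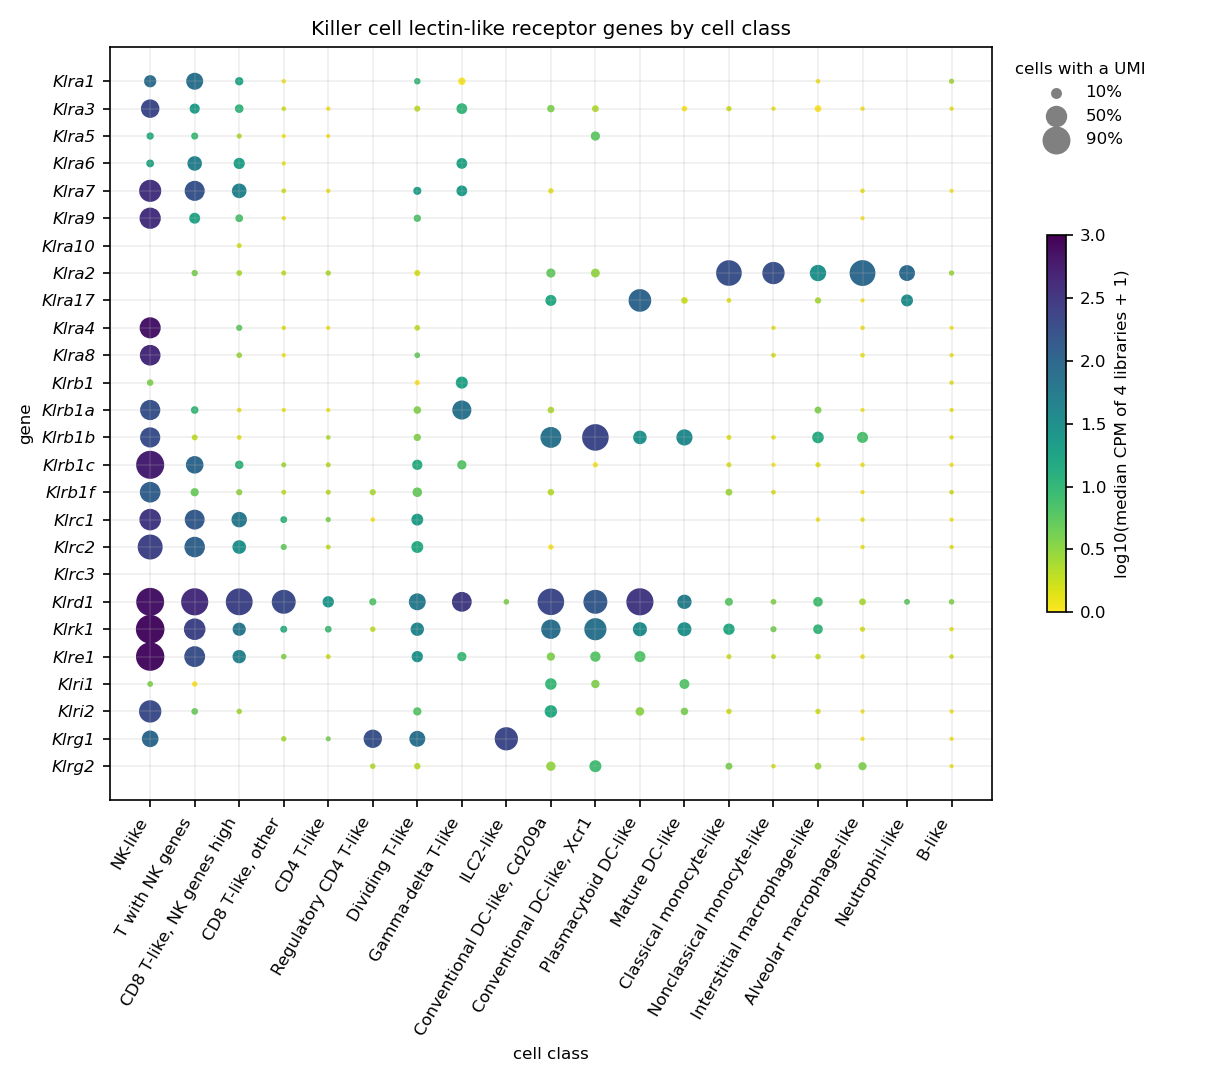
Each receptor gene (rows) in each cell class (columns), with colour for log10 of the median CPM over the 4 libraries plus 1 and dot area for the share of cells with a UMI. Most genes are highest in the NK-like column, while Klra2 stands out in monocytes and alveolar macrophages and Klrg1 in ILC2-like and regulatory CD4 T-like cells.

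All 26 genes lie on chromosome 6 (GRCm38). Klrg2 (38625693 to 38637242) and Klrg1 (122270596 to 122282882) stand apart, and the other 24 form the natural killer gene complex from Klrb1a, which starts at 128609227, to Klra2, which ends at 131247362. Within it, 10 Klra genes follow each other from Klra17 (129831154) to the end of Klra1 (130386874), and Klra2 lies apart. Because the genes are copies of one another, the last 500 transcript bases were compared in windows of 90 bases: 15 members shared no window with another gene, and the share was highest for Klrc1 (21.9%, with Klrc2), Klra10 (15.6%), Klrb1b (14.0%), Klra9 (12.4%) and Klrb1c (11.4%). Their counts are uncertain to that extent, whereas Klra1, Klra2, Klra4, Klra6, Klra8, Klrd1, Klre1, Klrg1 and Klrk1 had no shared window.

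The sequence just before the transcription start is shown for 4 Klra genes that were found in different cells: Klra4 and Klra8, found in NK-like cells, Klra2, found in monocytes and macrophages, and Klra17, found in plasmacytoid dendritic cells and neutrophils. RefSeq promoter windows (GRCm38.p6) matched 23 of the 26 members, and these 4 were the members the contrast between lymphoid and myeloid cells turned on. Each line gives the 150 bases before the start site, 5′ to 3′ on the minus strand, and capitals mark the longest run of bases that all 4 share.
Klra8, chr6:130129899-130130048: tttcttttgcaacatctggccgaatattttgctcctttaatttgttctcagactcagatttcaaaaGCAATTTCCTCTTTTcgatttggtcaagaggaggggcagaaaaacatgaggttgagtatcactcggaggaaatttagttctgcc
Klra4, chr6:130067272-130067421: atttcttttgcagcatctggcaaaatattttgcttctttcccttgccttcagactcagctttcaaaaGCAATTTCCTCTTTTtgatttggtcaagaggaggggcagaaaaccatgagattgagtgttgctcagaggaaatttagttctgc
Klra2, chr6:131247363-131247512: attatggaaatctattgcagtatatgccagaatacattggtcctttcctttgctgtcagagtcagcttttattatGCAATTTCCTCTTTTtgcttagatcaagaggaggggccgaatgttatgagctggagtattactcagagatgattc
Klra17, chr6:129876673-129876822: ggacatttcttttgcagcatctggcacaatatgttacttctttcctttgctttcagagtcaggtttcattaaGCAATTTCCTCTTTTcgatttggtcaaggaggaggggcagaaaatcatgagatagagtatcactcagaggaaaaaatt
The shared run is 15 bases long and starts 75 to 84 bases before the start site. It was present in 10 of 32851 promoter windows of the reference (0.0304%). Klra2, Klra4, Klra8 and Klra17 hold it by definition, because it was taken from these 4, so these counts are no test. Klra3, Klra6 and Klra9 also had it, so that 7 of the 11 Klra genes held it. Over the whole windows of 300 bases, Klra2 was 71.4% identical to Klra4 and 70.6% to Klra8, Klra17 was 79.3% and 79.0% identical to them, and Klra4 and Klra8 were 86.0% identical to each other. Exact letters were searched on either strand in the 28 windows of the 23 members. A member counted when any of its windows had them, whereas the share in brackets is over single promoter windows. TATAAA was present in 9 members (13.6% of all promoter windows), the RUNX core TGTGGT in 8 (16.8%) and CCAAT in 10 (37.4%). The longer ETS form GGAAGT was present in 4 (23.8%) and the T-box core AGGTGT in 1 (13.7%). Shorter ETS forms such as GGAA, which reads TTCC on the other strand and occurs in the shared run, were not counted. These matches describe letters and not bound factors.

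In NK-like cells Klrk1, Klre1 and Klrd1 had the highest median levels over the 4 libraries, although Klra4 was above Klre1 and Klrd1 in Papain KO. The activating receptor Klrk1 was at 1070, 495, 747 and 861 CPM, and 87.3% to 98.8% of NK-like cells had a UMI of it. Klre1, a partner that pairs with Klri proteins, followed at 888, 680, 848 and 700 CPM. Klrd1, the CD94 chain, was at 818, 522, 686 and 704 CPM. Their ranges overlapped, and no order among them held in every library.

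The CD94 partners were lower than CD94 itself. Klrc1, which encodes the inhibitory NKG2A, was at 324, 352, 297 and 256 CPM, and Klrc2, the activating NKG2C, was at 310, 176, 199 and 304 CPM. No Klrc1 ratio between libraries that was compared reached 1.5-fold. In 390 NK-like cells, 198 had a Klrc1 UMI and 176 of these (88.9%) also had a Klrd1 UMI, close to the 89.7% of all NK-like cells with Klrd1.

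Among the NKR-P1 genes Klrb1c (NK1.1, the antigen used to define NK cells in C57BL/6 mice) was highest, at 711, 497, 557 and 542 CPM and in 88.7% to 93.0% of cells. Klrb1b, an inhibitory receptor for Clec2d, was at 174, 192, 175 and 199 CPM. Klrb1a reached 162, 100, 178 and 196 CPM and Klrb1f 160, 123, 110 and 120 CPM. Klri2 was at 273, 156, 171 and 221 CPM, whereas its neighbour Klri1 had 7 UMIs in all. Klrg1, which binds cadherins, was at 85.0, 98.1, 178 and 91.4 CPM, so that Papain WT stood apart from the other 3.

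Among the Ly49 genes of NK-like cells, the activating Klra4 was highest or level with the highest in each library. Klra4 (Ly49D) was at 801, 377, 524 and 778 CPM, and Klra8 (Ly49H) at 527, 377, 315 and 470 CPM. Of the inhibitory genes, Klra9 (Ly49I) was at 364, 252, 484 and 382 CPM, Klra7 (Ly49G) at 418, 323, 300 and 379 CPM, Klra3 (Ly49C) at 275, 91.4, 202 and 224 CPM and Klra1 (Ly49A) at 102, 64.7, 129 and 29.9 CPM. Klra5 and Klra6 stayed under 40 CPM in each library, and Klra2, Klra10 and Klra17 together had 4 UMIs in NK-like cells.

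**Figure D2:**
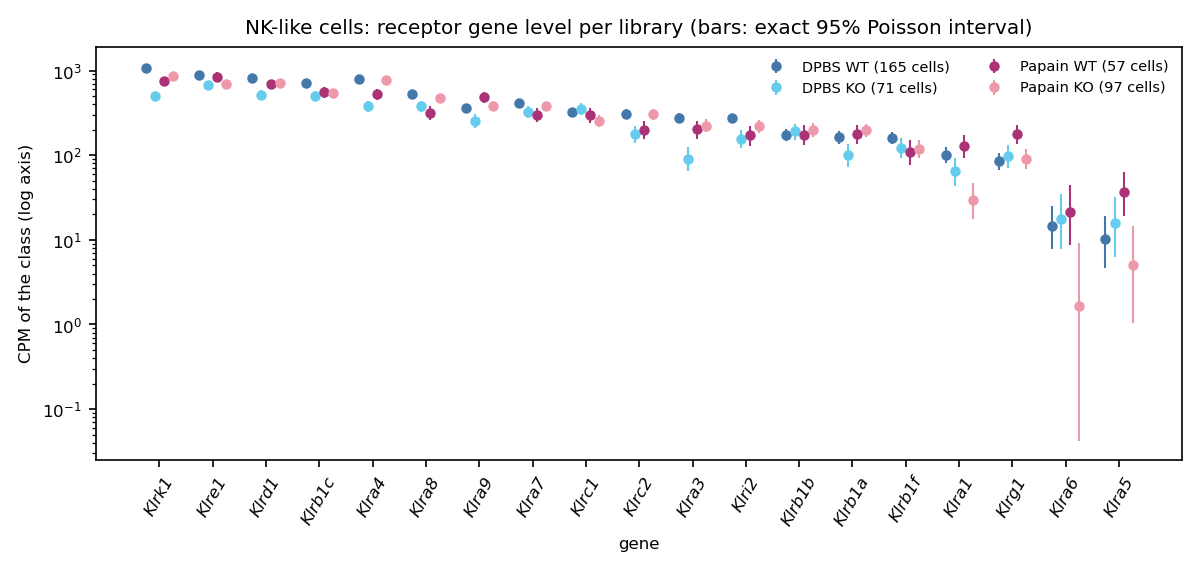
CPM of each receptor gene in NK-like cells (log axis), 1 point per library with its exact 95% Poisson interval. Klrk1 spans 495 to 1070 CPM, and the DPBS KO point is the lowest of the 4 for Klrk1, Klrd1, Klra4 and Klra3.

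The number of Ly49 genes detected differed between single NK-like cells. To compare cells of unequal depth, each was thinned to 1500 UMIs, which kept 386 of 390 NK-like cells. In the thinned cells 79.8% had a UMI of at least 1 Klra gene, 26.2% had exactly 1, 25.9% had 2 and 21.5% had 3, with 4 or more in 6.22%. The mean number of distinct Klra genes was 1.69 ± 1.23 (SD over 386 cells), and 2.55 without thinning. By library the mean was 1.93, 1.32, 1.65 and 1.57. In B-like cells, thinned the same way, 0.672% had any Klra UMI.

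T cells with NK genes shared only some of this set. Klrd1 was their leading member, at 445, 335, 350 and 447 CPM and in 77.2% to 93.8% of cells. Klrk1 was at 357, 165, 268 and 211 CPM, Klre1 at 201, 153, 186 and 162 CPM, Klrc1 at 90.4, 136, 141 and 178 CPM and Klrc2 at 112, 89.0, 110 and 126 CPM. For Klrk1, Klre1, Klrc1 and Klrc2 all 4 values lay below the lowest NK-like value, and for Klrc1 and Klrc2 the NK-like values were between 176 and 352 CPM.

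The Ly49 genes detected in these T cells were inhibitory ones. Klra7 was at 267, 144, 167 and 150 CPM and was found in 35.7% to 47.8% of cells. Klra1 was at 205, 72.1, 74.9 and 61.3 CPM, a range that overlaps the 29.9 to 129 CPM of NK-like cells. Klra6 (Ly49F) was at 92.6, 59.4, 29.6 and 36.8 CPM and in 12.7% to 28.4% of cells, above the 1.66 to 21.4 CPM of NK-like cells in every library. Klra9, at 10.5 to 52.9 CPM, and Klra3, at 0 to 35.3 CPM, were lower than in NK-like cells.

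The activating Ly49 genes were not detected in T cells with NK genes. Klra4 and Klra8 had 0 UMIs in 220 cells, which allows a share of up to 1.36% of cells with a UMI and a level of up to 1.89 CPM. Over the 4 libraries pooled, Klra4 was at least 355-fold higher in NK-like cells and Klra8 at least 239-fold higher. Their adaptor Tyrobp was also low in these T cells, at 174, 110, 88.9 and 98.0 CPM against 2456 to 3107 CPM in NK-like cells, whereas Hcst, the adaptor of NKG2D, was at 700 to 833 CPM against 524 to 612 CPM. B-like cells had 71.4 to 94.4 CPM of Tyrobp. In thinned cells 33.9% of the T cells with NK genes had any Klra UMI, with a mean of 0.417 ± 0.633 distinct Klra genes (SD over 218 cells).

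**Figure D3:**
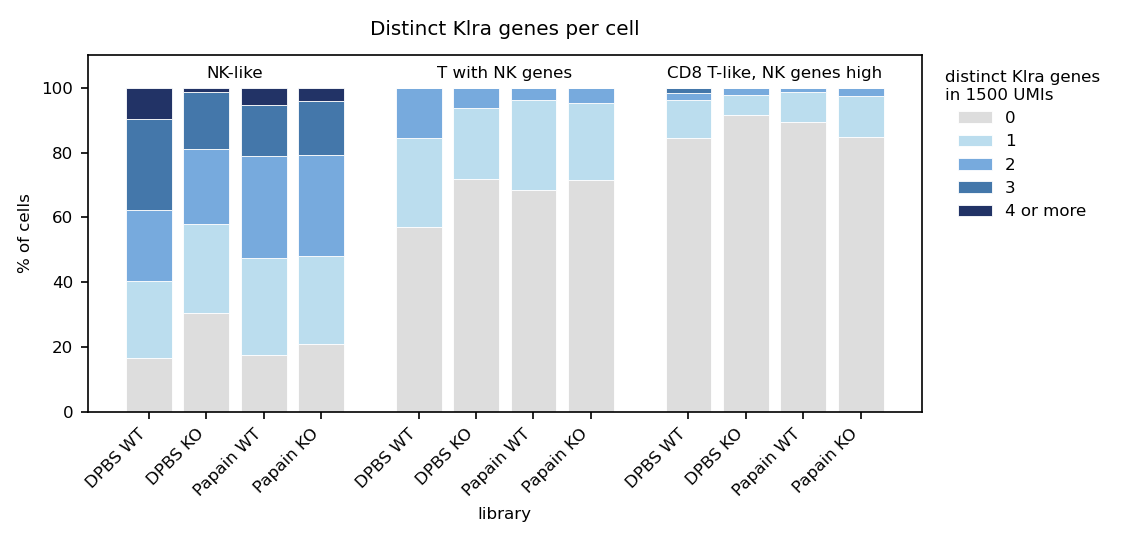
Stacked bars of the share of cells (percent) by the number of distinct Klra genes with a UMI after thinning to 1500 UMIs, for each class and library. Of NK-like cells 69.6% to 83.5% had at least 1 Klra gene, against 28.1% to 43.1% of T cells with NK genes and 8.40% to 15.4% of CD8 T-like cells in sub-clusters with high NK genes.

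CD8 T-like cells carried Klrd1 without most of its partners. Klrd1 was at 214, 201, 233 and 201 CPM, and 66.2% to 70.3% of cells had a UMI. In cells thinned to 1500 UMIs the share was 22.5% to 29.2%, against 0.138% to 0.498% of B-like cells. Klrc1 was found in 3.99%, 6.64%, 11.4% and 8.04% of cells and Klrc2 in 3.01%, 3.03%, 9.52% and 5.78%. Even the CD8 T-like cells outside the sub-clusters with high NK genes had Klrd1 in 63.2% to 66.1% of cells, whereas CD4 T-like cells stood at 23.1 to 33.2 CPM and B-like cells at 1.63 to 3.76 CPM.

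Ly49 genes in CD8 T-like cells were found mostly in the sub-clusters with high NK genes, where 12.6% of thinned cells had any Klra UMI, against 0.462% of the other CD8 T-like cells and 0.672% of B-like cells. Without thinning the CD8 shares were 33.1% and 1.77%. Cells of these sub-clusters made up 16.7%, 18.9%, 33.1% and 20.7% of CD8 T-like cells (exact binomial 95% intervals 14.5 to 19.0, 16.1 to 22.0, 29.6 to 36.7 and 18 to 23.7). In them Klra7 was at 44.9, 32.5, 44.3 and 73.6 CPM and Klrk1 at 60.1, 21.6, 88.5 and 67.9 CPM. Klra4 and Klra8 stayed at or under 1.60 CPM over all CD8 T-like cells. In the sub-clusters with high NK genes alone, Klra4 had a median of 4.41 CPM over the libraries.

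Klrg1 had its highest median levels in ILC2-like and regulatory CD4 T-like cells. ILC2-like cells are tissue-resident lymphocytes that make type 2 cytokines, and Klrg1 was at 203, 217, 243 and 170 CPM in their 68, 50, 79 and 76 cells, in 50% to 73.4% of cells. All 4 ratios between libraries were under 1.5-fold there. Klrg1 was the only member with 20 UMIs in the class, and Klrd1 and Klrk1 had 0 to 2 UMIs in each library. In regulatory CD4 T-like cells Klrg1 was at 145, 58.4, 311 and 194 CPM, a range that overlapped that of NK-like cells. The papain value was higher than the DPBS value in WT (log2 ratio 1.10, interval 0.72 to 1.5) and in KO (1.73, 0.99 to 2.55). The KO value was lower than the WT value in DPBS (-1.31, -2.15 to -0.54) and in papain (-0.68, -1.04 to -0.34), and these 4 ratios share libraries. Dividing T-like cells had Klrg1 at 29.7, 150, 85.0 and 61.3 CPM, and CD8 T-like cells had it in 0.266% to 1.73% of cells.

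Monocytes, macrophages and neutrophils had a Ly49 gene of their own. Klra2 (Ly49B), an inhibitory member with 12514 UMIs and so the most counted of all, was at 203, 168, 146 and 184 CPM in classical monocyte-like cells and at 185, 161, 145 and 207 CPM in nonclassical monocyte-like cells. Alveolar macrophage-like cells had 92.2, 96.2, 84.9 and 98.6 CPM and neutrophil-like cells 91.1, 122, 84.8 and 89.5 CPM. Interstitial macrophage-like cells were lower, at 28.0 to 32.1 CPM, and that range did not overlap those of the other 4 classes. No ratio of Klra2 between libraries reached 1.5-fold in any of these 5 classes. NK-like cells had 1 Klra2 UMI, against B-like values of 0.891 to 2.19 CPM.

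**Figure D4:**
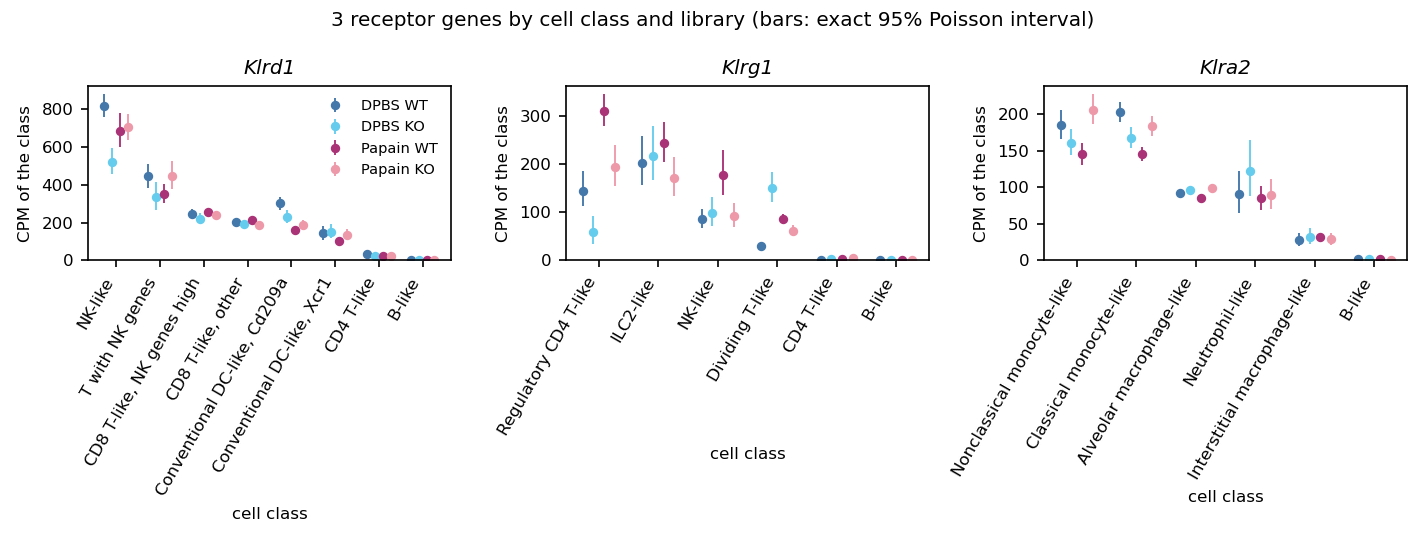
CPM of Klrd1, Klrg1 and Klra2 by cell class, 1 point per library with its exact 95% Poisson interval. Klrd1 spans NK-like, T and dendritic cells, Klrg1 is at 170 to 243 CPM in ILC2-like cells, and Klra2 is at 145 to 207 CPM in both monocyte classes.

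Dendritic cells had a further set. Klra17 (Ly49Q) was at 102, 6.38, 100 and 104 CPM in plasmacytoid dendritic cell-like cells, of which there were 10, 7, 28 and 13. The DPBS KO value rests on 1 UMI in 7 cells, and Klrb1b was at 230 CPM in those 7 cells against 0 to 43.4 CPM in the other 3 libraries. Cells of this class were picked out of the conventional dendritic cell clusters by UMIs of at least 2 of the 4 genes Siglech, Ccr9, Cox6a2 and Pacsin1. In DPBS KO only 28 of the 31 cells of the Xcr1 cluster kept the conventional name, so some of the 7 came from that cluster. Whether those 7 cells are plasmacytoid was not tested. Neutrophil-like cells had Klra17 at 41.2, 26.1, 56.3 and 20.9 CPM. Klrb1b was highest in Xcr1-expressing conventional dendritic cell-like cells, at 275, 251, 179 and 172 CPM and in 81.0% of their 126 cells, at a level that overlapped that of NK-like cells. Klrd1 was at 302, 230, 164 and 187 CPM in Cd209a-expressing and at 143, 152, 101 and 137 CPM in Xcr1-expressing conventional dendritic cell-like cells, and at 324, 255, 271 and 343 CPM in the plasmacytoid ones. Klrk1 was at 64.7 to 107 CPM in the Xcr1-expressing cells. Klri1 and Klrg2 stayed at or under 12.9 CPM in every class.

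Next, KO was compared with WT in NK-like cells of DPBS-treated lungs. Of the 26 members, 18 had at least 20 UMIs over the 2 libraries, and 14 of these were lower in KO, 13 of them with an exact 95% interval that left out 0. Counts by direction or by interval, here and below, have no share over all genes beside them. The same holds for members called under alternative settings or within subsets of a class. A change was called at 2-fold or more, which 3 of the 18 reached: Klrk1 (log2 ratio -1.11, interval -1.33 to -0.90), Klra4 (-1.09, -1.34 to -0.84) and Klra3 (-1.59, -2.10 to -1.11). Of all 6366 genes with 20 UMIs, 6.93% were called. The median over the 18 members was -0.52, beside -0.06 over all genes, and the summed UMIs of all 26 members were at 7499 CPM in WT and 4914 CPM in KO (-0.61). Klrc1 (0.12), Klrb1b (0.14) and Klrg1 (0.21) each had an interval that included 0. Intervals cover counting error only, and not differences between cells or between mice.

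This NK comparison moved with how the class was defined, and its sum moved either way. Without the cells that had a Cd3 UMI (an alternative chosen after seeing the data), the ratio was -0.97 for Klrk1, -0.76 for Klra4 and -1.76 for Klra3, so that 1 member was called, and the sum was at -0.51. In NK-like cells gated on transcripts, a definition that also leaves out cells with a Cd3 UMI, the log2 ratio of the sum was more negative than in the full class. The NK marker Ncr1 was itself at 557 CPM in DPBS WT and 323 CPM in DPBS KO. In sums over a class, fewer cells that express a gene and less RNA per cell cannot be told apart. Klra3 had a UMI in 42.4% of NK-like cells in WT and 19.7% in KO, and Klra4 in 55.2% and 35.2%.

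After papain, the summed receptors of NK-like cells were at similar levels in KO and WT. Of 17 members with 20 UMIs, 6 were lower and 11 higher in KO, and the sum was at 6161 CPM in WT and 6477 CPM in KO (log2 ratio 0.07, interval -0.01 to 0.15). Klra1 was the 1 member called, at -2.10 (interval -2.99 to -1.28), in a class where 6.43% of all genes were called. Klra1 was found in 22.8% of Papain WT and 8.25% of Papain KO cells. Klrg1 was at -0.96 (-1.52 to -0.40). Klra4 (0.57) and Klra8 (0.58), the activating pair, and Klrc2 (0.61) were higher in KO, with intervals above 0 but ratios under 2-fold. Without cells with a Cd3 UMI the sum was at -0.039, Klra1 was at -2.17 and 2 members were called.

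Papain was then set against DPBS within each genotype. In WT NK-like cells 2 of 19 members were called, Klrg1 (1.06, interval 0.54 to 1.58) and Klra5 (1.85, 0.48 to 3.28, from 12 and 9 UMIs), beside 7.17% of all genes, and the sum was lower (-0.28). Klra8 (-0.74), Klri2 (-0.67), Klrc2 (-0.64) and Klra4 (-0.61) were lower after papain without being called. In KO NK-like cells 3 of 17 were called, Klra4 (1.05, 0.79 to 1.31), Klra3 (1.29, 0.78 to 1.84) and Klra1 (-1.11, -2.05 to -0.22), beside 5.21% of all genes, and the sum was higher (0.40). The DPBS KO library, with the highest share of cells with a Cd3 UMI, is the lower term of that ratio and the upper term of the KO to WT ratio in DPBS. Without cells with a Cd3 UMI, Klra4 was at 0.82, Klra3 at 1.5 and Klra1 at -1.24 in KO, and Klrg1 at 1.10 and Klra5 at 1.81 in WT. The WT count was 0 without the cell with the most UMIs of each member, and 1 with TMM factors, with means over cells and without cells with a Cd3 UMI. The KO count was 1 without integration, without doublet removal and with members among the variable genes, and 6 in cells gated on transcripts.

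**Figure D5:**
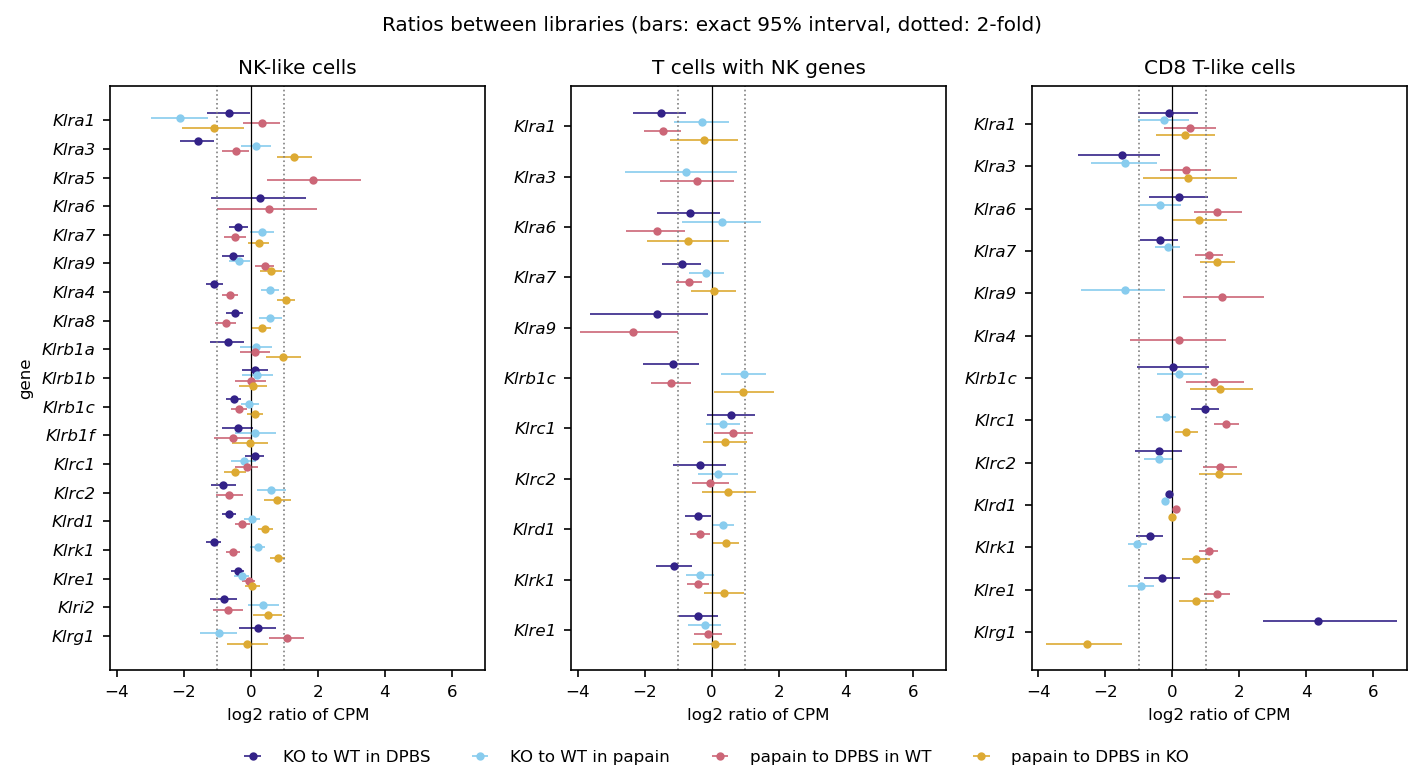
log2 ratio of CPM between libraries for each member with at least 20 UMIs, in NK-like cells, T cells with NK genes and CD8 T-like cells, with exact 95% intervals and 2-fold lines dotted. In NK-like cells Klrk1, Klra4 and Klra3 lie below -1 for KO to WT in DPBS, and in CD8 T-like cells 8 members lie above 1 for papain to DPBS in WT.

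In T cells with NK genes 9 of 10 measured members were lower in KO than in WT after DPBS. The 4 called were Klrb1c (-1.16), Klrk1 (-1.11), Klra9 (-1.64) and Klra1 (-1.51), and 11.7% of all 3767 genes of the class were called. The sum of all members was at 2066 CPM in WT and 1264 CPM in KO (log2 ratio -0.71). Without integration or without doublet removal 1 member was called, the sum was at -0.19 in cells gated on transcripts, and with members among the variable genes no such class formed. Klrc1 was the exception, at 0.59 with an interval of -0.13 to 1.29. After papain, 0 of 10 members were called (7.51% of all genes), and the sum was at 1462 CPM in WT and 1562 CPM in KO. Klrb1c was at 66.2 CPM in Papain WT and 129 in Papain KO (0.96, interval 0.29 to 1.63).

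Papain was then set against DPBS in these cells. In WT, 10 of 11 members were lower after papain and 4 were called, namely Klrb1c (-1.20, interval -1.81 to -0.61), Klra6 (-1.64, -2.55 to -0.80), Klra9 (-2.34, -3.92 to -1.01) and Klra1 (-1.45, -2.01 to -0.92), beside 8.48% of all genes. Klrc1 was higher (0.64, 0.08 to 1.22). In KO, 0 of 9 members were called (8.46% of all genes) and the sum was 0.31 higher. The DPBS WT library had the highest value of the 4 for Klrb1c, Klrk1, Klre1, Klra1, Klra6, Klra7, Klra9 and Klra3, and it is the lower term of both comparisons with calls. These classes held 32 to 79 cells, and when cells were instead gated on transcripts the WT papain ratio of the sum turned to 0.12, with Klrb1c at 0.30, Klra6 at 0.082 and Klra9 at -0.24.

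In CD8 T-like cells papain went with higher levels in WT. All 12 measured members were higher and 8 were called, where 3.23% of all 10153 genes were: Klrc1 (1.60, interval 1.23 to 1.99), Klra9 (1.48), Klrc2 (1.41), Klra6 (1.34), Klre1 (1.32), Klrb1c (1.25), Klrk1 (1.08) and Klra7 (1.08). The median of the 12 was 1.16, beside 0.06 over all genes. Klrc1 went from 11 CPM in DPBS WT to 33.3 in Papain WT, and Klrk1 from 22.4 to 47.4. Klrd1 differed by 0.12. The share of CD8 T-like cells in sub-clusters with high NK genes was 16.7% in DPBS WT and 33.1% in Papain WT. Within those cells alone 2 of 11 measured members were called, with Klrc1 at 0.83, Klrc2 at 0.90, Klrk1 at 0.56 and Klra7 at -0.02. Within the other CD8 T-like cells 3 of 6 were called. The share of all genes called was not computed for either subset.

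In KO CD8 T-like cells 4 of 11 members were called after papain, where 2.07% of all genes were. Klrb1c (1.42, interval 0.53 to 2.39), Klrc2 (1.40, 0.78 to 2.07) and Klra7 (1.32, 0.81 to 1.86) were higher and Klrg1 was lower (-2.55, -3.78 to -1.49). The Klrg1 ratio rests on DPBS KO, where 42 UMIs came from 12 of 693 cells and 15 of them from 1 cell, against 3 to 9 UMIs in each of the other libraries. The sum of all members was 0.22 higher after papain, but it was at -0.044 with 1 call in cells gated on transcripts and at -0.017 with 2 calls when members were kept among the variable genes. Within the sub-clusters with high NK genes alone the sum was at 0.56. In the other CD8 T-like cells the sum was at -0.10, with 2 calls among 6 measured members. The share of cells in the sub-clusters with high NK genes was 18.9% in DPBS KO and 20.7% in Papain KO.

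KO was then compared with WT in CD8 T-like cells. After DPBS, 2 of 11 were called, Klrg1 (4.35, interval 2.71 to 6.69, from the same 42 UMIs) and Klra3 (-1.50, -2.82 to -0.36), beside 3.15% of all genes. After papain, 10 of 11 were lower in KO and 3 were called, Klrk1 (-1.04, -1.34 to -0.75), Klra9 (-1.42, -2.74 to -0.22) and Klra3 (-1.41, -2.44 to -0.46), beside 2.33% of all genes. The sum was at 419 CPM in WT and 330 CPM in KO after papain (-0.35). Within the cells of the sub-clusters with high NK genes alone that sum turned to 0.06, with Klrk1 at -0.38 and 5 of 11 measured members lower in KO. Within the other CD8 T-like cells all 6 measured members were lower in KO, 5 of them with an interval that left out 0. Papain WT had the larger share of cells with high NK genes, and the part of that share in the ratios was not tested.

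Signalling partners and ligands were counted from lists. Of 6 adaptors and phosphatases, 0 were called in any of the 4 NK comparisons, where 5.21% to 7.17% of all genes were. Inpp5d, a lipid phosphatase of inhibitory signalling, was the 1 call in T cells with NK genes and CD8 T-like cells. Its ratio was 1.41 (interval 0.66 to 2.23) for papain to DPBS in WT T cells with NK genes, beside 8.48% of all genes called. Of 13 ligand genes in the files, 5 to 7 passed the minimum in each comparison of these 3 classes. Cdh1, the E-cadherin bound by Klrg1, was the 1 call in them. Its ratio was -2.03 for KO to WT after papain in CD8 T-like cells, from 5 and 17 UMIs, beside 2.33% of all genes called. Counts of 0 or 1 in lists of this length cannot be told apart from these shares. The medians of the adaptors and phosphatases that passed the minimum, 5 or 6 in each comparison, lay between -0.41 and 0.23. Over all genes of the same comparisons the medians lay between -0.12 and 0.13.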

How the data were processed

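Live CD45.2+ lung cells of 4 groups were measured by 10x 3′ single-cell RNA-seq, 1 library each. The authors made the deposited matrices with Cell Ranger 3.1.0 (file header) against mm10 (per the labels), and the deposited values are raw UMI counts, not normalized. Barcodes with under 200 genes or 15% or more mitochondrial UMIs were left out. Doublets were taken as the top scores at 0.8% per 1000 barcodes, because the caller's own threshold marked 0.0175% of barcodes in Papain KO. That removed 260 to 531 barcodes per library, and median depth was then 5858 to 6689 UMIs.

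Cells were clustered in Seurat 5.3.0 after integration, with the receptor genes kept out of the variable genes and of the markers. Classes were named from marker lists as X-like, and the T cells with NK genes were delimited after their clusters had been seen. Plasmacytoid dendritic cell-like cells had no cluster of their own and were set by UMIs of at least 2 of 4 genes within the conventional dendritic cell clusters. UMIs were summed per class and library and scaled to 1000000 UMIs of the class (CPM). Intervals are exact 95% Poisson (CPM), exact binomial (shares) and exact conditional binomial (ratios), and cover counting error only. A UMI count of 0 was given a limit of 3 counts. With 1 library per group no test was made. A gene was called at 2-fold or more with at least 20 UMIs over both libraries, and the same rule over all genes of the class gave the background. Counts of members that were lower or higher, or had an interval that left out 0, were given without such a background. Calls under the alternatives and within subsets of a class also had none. The calling step was tested on simulated data.

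Genes were named where they reached 20 UMIs in any class. The members and lists were chosen with earlier results of these data known. Annotation was GENCODE M21 (GRCm38), and promoters were RefSeq windows. Alternatives covered clustering, gating, doublets, mitochondrial limit, scaling (TMM factors from edgeR 4.0.16 on the deposited counts), thinning, minimum and fold limit. Python 3.11.15, scanpy 1.11.5, scipy 1.17.1 and R 4.3.3 were used.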

Additional observations from a re-analysis of the deposited data

Results flagged for a closer look

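The ratios given here had opposite signs in 2 settings of the same contrast, each with an interval that excluded 0. The difference between the settings was not tested, since each group is 1 library. The 2 ratios of opposite sign come from different libraries, but the genotype and papain contrasts of a gene rest on the same libraries.

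In NK-like cells, Klra4 (Ly49D) was lower in KO than in WT after DPBS (log2 ratio -1.09, interval -1.34 to -0.84) and higher after papain (0.57, 0.31 to 0.83). Read the other way, papain against DPBS gave -0.61 (-0.86 to -0.37) in WT and 1.05 (0.79 to 1.31) in KO. Klra3 (Ly49C) was at -0.45 (-0.86 to -0.05) for papain against DPBS in WT and at 1.29 (0.78 to 1.84) in KO. The share of NK-like cells with a Cd3 UMI was 33.8% in DPBS KO and 9.70% to 28.1% in the other libraries, and its part in these signs was not tested. Without those cells Klra4 was at -0.76 for KO to WT in DPBS and 0.82 for papain to DPBS in KO, and the ratios of opposite sign were not recomputed.

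In T cells with NK genes, Klrb1c (NK1.1) was at -1.16 (-2.05 to -0.37) for KO against WT after DPBS and at 0.96 (0.29 to 1.63) after papain. Papain against DPBS gave -1.20 (-1.81 to -0.61) in WT and 0.92 (0.06 to 1.85) in KO. The 4 values rest on 69 and 16 UMIs in WT and KO after DPBS and on 38 and 42 after papain. With classes gated on transcripts the papain ratio in WT was 0.30.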

How the results depend on the processing

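No paired analysis was possible because each group is 1 library. Sums below are log2 ratios of all 26 members, and calls are numbers of members called. The share of all genes called was not computed for these alternatives, so their calls have no background. Where a value moved, the cause was not tested.

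Under a mitochondrial limit of 10% the 24 sums and counts recomputed stayed within the sum's 95% interval or within 1.5 times the count. In classes gated on transcripts other values moved: in NK-like cells the sum was -0.71 for KO to WT in DPBS, -0.12 for papain to DPBS in WT and 0.66 in KO (6 calls), and summed levels were 6537 CPM in DPBS WT and 4001 CPM in DPBS KO. In gated T cells with NK genes the sums were -0.19 and -0.11 for KO to WT in DPBS and papain, and 0.12 for papain to DPBS in WT, a reversal, with Klrb1c at 0.30 and Klra6 at 0.082. Papain to DPBS in KO gave 2 calls there, levels were 542 and 475 CPM in WT and KO after DPBS and 591 and 546 CPM after papain, and distinct Klra genes per cell averaged 0.175. In gated CD8 T-like cells, defined with few NK genes, the sums were 0.040 (4 calls) for KO to WT in DPBS, 0.36 (5 calls) for papain to DPBS in WT and -0.044 (1 call, reversed) in KO. Levels there were 244 and 250.8 CPM in WT and KO after DPBS and 314 and 243 CPM after papain, with 0.0173 Klra genes per cell.

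Without NK-like cells with a Cd3 UMI the sums were -0.51 (1 call), -0.039 (2 calls), -0.15 (1 call) and 0.32 for KO to WT in DPBS, KO to WT in papain, papain to DPBS in WT and papain to DPBS in KO. CD8 T-like cells with high NK genes alone gave -0.25, 0.056 (1 call, reversed), 0.25 (2 calls, Klra7 -0.022) and 0.56 in that order. The other CD8 T-like cells gave 0.28 (3 calls, Klrb1c -0.016 and Klra6 -0.14) for papain to DPBS in WT and -0.10 (2 calls, reversed) in KO. These 3 splits were chosen after seeing the data.

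With members kept among the variable genes, CD8 T-like sums were 0.27 (4 calls) for papain to DPBS in WT and -0.017 (2 calls, reversed) in KO, NK-like cells had 1 call for papain to DPBS in KO, and no class of T cells with NK genes formed. Without integration NK-like cells had 1 call for papain to DPBS in KO, and T cells with NK genes had 1, 2 and 1 calls for KO to WT in DPBS, KO to WT in papain and papain to DPBS in KO, and a sum of -0.35 for papain to DPBS in WT. Without doublet removal NK-like cells had 1 call for papain to DPBS in KO and 7273 CPM in DPBS WT. T cells with NK genes then had 1 call in each KO to WT comparison, a sum of 0.013 for papain to DPBS in KO and 1434 CPM in DPBS KO.

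TMM factors gave NK-like sums of 0.15 for KO to WT in papain and -0.36 (1 call) for papain to DPBS in WT, and 1 call for KO to WT in papain in T cells with NK genes. Means over cells gave an NK-like sum of -0.53 for KO to WT in DPBS, 1 call for papain to DPBS in WT, and 1 call for papain to DPBS in KO in T cells with NK genes. Without the cell with the most UMIs of each member, NK-like sums were -0.69 for KO to WT in DPBS and -0.37 for papain to DPBS in WT, where 0 members were called. A minimum of 10 UMIs gave 2 NK-like and 5 CD8 T-like calls for KO to WT in papain.

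A 1.5-fold limit, at which the share of all genes called was not computed, gave 8, 3, 6 and 7 calls in NK-like cells over the 4 comparisons. It gave 7, 2 and 2 calls in T cells with NK genes for KO to WT in DPBS, KO to WT in papain and papain to DPBS in KO, and 4 and 7 in CD8 T-like cells for KO to WT in DPBS and papain to DPBS in KO. Without thinning every NK-like cell (100%), 98.2% of T cells with NK genes and 71.5% of CD8 T-like cells had a member UMI, with 2.55, 1.16 and 0.125 distinct Klra genes per cell. Thinned to 1000 UMIs the shares were 72.6% in T cells with NK genes and 22.9% in CD8 T-like cells. Classes of 32 to 165 cells limit what the depth can show, and no alternative stands in for replicate mice.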
